A study of Mus musculus with 17 samples.

Results

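Genes of interleukin (IL)-1, IL-6, and STAT3 signaling, 10 in number, were followed in the livers of 17 mice: the ligand Il1b, the receptor antagonist Il1rn, the receptors Il1r1 and Il6ra, the transducer Stat3, its feedback inhibitor Socs3, the transcription factors Cebpb and Cebpd, and the NF-kappaB regulators Nfkbia and Nfkbiz. They were chosen by name, with earlier results of these data known, as all probes that the authors' table lists under one of these symbols. This gave 10 of the 19355 genes tested, on 15 of the 34655 probes tested. The filter on dim signals lost 0 of the 15 probes. All mice were male and fed for 3 months. The mice made up 4 groups: chow diet with a maltose gavage (chow, n = 4), chow diet with 1 ethanol gavage of 5 g/kg (1B, n = 4), high-fat diet with maltose (HFD, n = 4), and high-fat diet with the same ethanol gavage (HFD+1B, n = 5). Livers were taken 9 hours after the gavage. Per the labels the strain was C57BL/6N, whereas the methods name C57BL/6J, and neither gives a transgene or deletion for these groups. Each array held the liver cDNA of 1 mouse in Cy5 and a reference of assorted mouse RNA in Cy3. Every value below is therefore a log2 ratio of liver to that reference, and it can be compared between mice but not between probes. The dyes were never swapped, so a dye effect of a probe was common to all groups.

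IL-1 and IL-6 are the cytokines that switch the liver to its acute-phase response. IL-1beta binds the receptor encoded by Il1r1 and acts through NF-kappaB, whereas IL-6 binds the receptor encoded by Il6ra and, through gp130 and the Janus kinases (JAK), activates STAT3, which induces its own inhibitor Socs3. C/EBP-beta and C/EBP-delta act with STAT3 on acute-phase genes, and the IkappaB proteins encoded by Nfkbia and Nfkbiz bind NF-kappaB and modulate its activity.

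Arrays differed in brightness. Median Cy5 signals ran from 99 to 138 intensity units on chow arrays, 69 to 134 on those of 1B, 63 to 98 on those of HFD, and 90 to 158 on those of HFD+1B. Of 8 hepatocyte markers, 4 were well above background on all 17 arrays (Apoa1, Ttr, Hnf4a, and Cyp2e1), Alb, Cps1, and Tat were so on fewer, and Serpina1a matched no probe. Spots flagged as outliers did not count as well above background, however bright. A lower count therefore need not mean a dim signal, and its reason was not tested. Kupffer cell and macrophage markers, averaged over 9 genes relative to chow, were higher on the high-fat diet, at 0.46 to 0.59 for HFD mice and 0.19 to 0.83 for HFD+1B mice, beside -0.26 to 0.31 for chow mice and -0.15 to 0.07 for 1B mice. Of these 9 markers, 2 rose in HFD+1B against chow and 0 against HFD. Neutrophil markers, averaged over 11 genes, were at -0.00 to 0.36 in HFD+1B mice and at -0.15 to 0.22 in chow mice. Their average was -0.19 to 0.25 in 1B mice and -0.22 to 0.28 in HFD mice. Of these 11, 3 rose and 1 fell in HFD+1B against chow (median difference -0.04), and 2 rose and 1 fell against HFD (0.04). For S100a8, a defining one, no chow array gave a signal that counted as well above background. Its signal did count on 4 arrays of 1B, 3 of HFD, and 5 of HFD+1B. The other 10 markers counted on all 17 arrays. Stellate cell markers averaged 0.22 to 0.73 in HFD+1B mice, 0.20 to 0.43 in HFD, 0.13 to 0.24 in 1B, and -0.12 to 0.13 in chow mice. Of these 6 markers, 3 rose in HFD+1B against chow (median difference 0.50) and 2 against HFD. Of 6 markers of sinusoidal endothelium, 1 rose and 4 fell in HFD+1B against HFD (median difference -0.63), and 1 rose and 3 fell against chow. Their average was -0.06 to 0.34 in HFD+1B mice, 0.28 to 0.47 in HFD, 0.12 to 0.26 in 1B, and -0.07 to 0.10 in chow mice. Of 6 T and B cell markers, 2 rose against HFD and 0 were called against chow. Beside these marker counts, 16.3% of all genes were called in HFD+1B against chow (8.90% higher and 7.40% lower). Against HFD it was 19.4% (11.0% higher and 8.39% lower). In bulk liver a change in the number of cells of a type and a change of RNA per cell cannot be told apart, and the part that other cells had in the results was not tested.

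The promoters below are shown because they belong to members that differed between groups and hold a motif of the factors named above. Letters were searched on both strands of the 250 bases before each start, for STAT (TTCNNNGAA), C/EBP (TTGCNNAA), and NF-kappaB (GGG and TTTCC with 2 bases of any kind between them), and the capitals mark the match. The sequences are those of RefSeq on GRCm38.p6, printed 5′ to 3′ on the strand of the gene.
Socs3, chr11:117969502-117969530, minus strand, STAT: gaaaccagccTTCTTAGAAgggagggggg
Nfkbia, chr12:55492657-55492686, minus strand, NF-kappaB read on the opposite strand: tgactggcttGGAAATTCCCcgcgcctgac
Il1r1, chr1:40224937-40224964, plus strand, the first of its starts, C/EBP: cctggcacgtTTGCTGAAtgcttctggc
Of 32851 promoters of that length, 7.02% held the STAT motif, 9.56% the C/EBP motif, and 1.41% the NF-kappaB motif. The Socs3 match began 154 bases before the start, the Nfkbia match 29 bases, and the Il1r1 match 133 bases before it. One of the starts of Il1rn also held the NF-kappaB motif, and the windows of Stat3, Il6ra, Il1b, and Cebpb held none of these letters. Cebpd and Nfkbiz were not in the promoter table used here. These matches describe letters in a short window and were not tied to any binding measurement.

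In HFD+1B mice, Stat3, Il1r1, Cebpb, Cebpd, and Nfkbiz were all higher than in chow, by 1.82- to 3.67-fold on the ratio scale. A gene was called at a Benjamini-Hochberg adjusted p of 0.05 or less from limma over all probes tested, at its brightest probe. By that rule 5 of the 10 members rose and 0 fell, where 16.3% of the 19355 genes tested were called in either direction (8.90% higher and 7.40% lower). The median difference of the members was 0.70, whereas the median over all genes was 0.00 on the log2 scale. Against HFD, which differs from HFD+1B only in the gavage, 6 of the 10 rose (Socs3, Stat3, Il6ra, Il1r1, Cebpb, and Cebpd), beside 19.4% of all genes called (11.0% higher and 8.39% lower), and the members' median difference was 0.90. Against 1B, 6 of the 10 rose (Stat3, Il1r1, Cebpb, Cebpd, Nfkbiz, and Nfkbia), beside 11.4% of all genes (6.28% higher and 5.15% lower). This last count was 3 without 1B mouse 2 and 2 without 1B mouse 3. Ethanol on the chow diet raised 1 member, Stat3, where 4.13% of all genes were called (2.09% higher and 2.04% lower). HFD without ethanol lowered 1 member, Il6ra, where 11.0% were called (4.50% higher and 6.46% lower), and that count was 0 without any chow mouse or without HFD mouse 3 or 4. These comparisons share the HFD+1B or the chow mice, so their counts are not independent of each other. The members were chosen with earlier results of these data known, so their shares beside those of all genes are a description and no test.

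**Figure D1:**
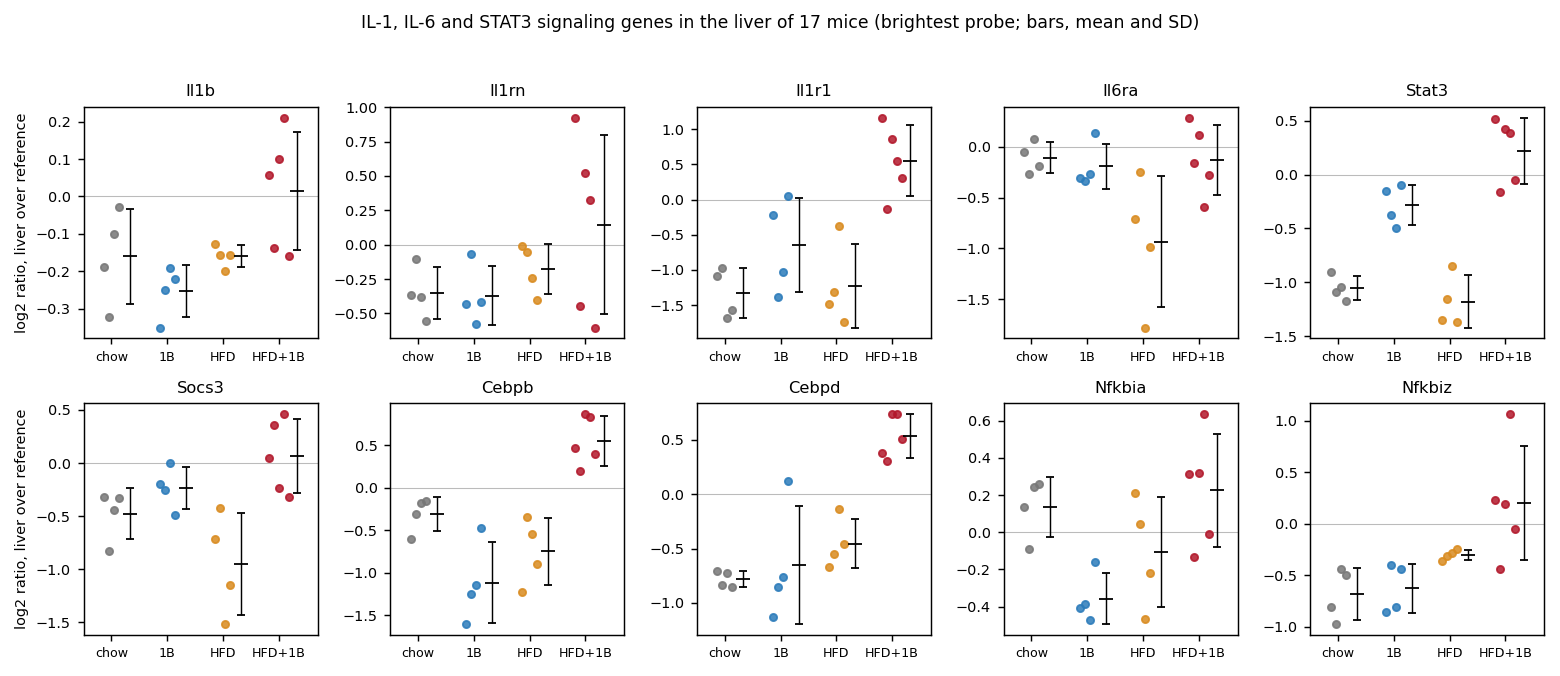
Log2 ratio of liver to reference (y axis, scaled separately for each gene) of the 10 members at their brightest probe, with 1 point per mouse in 4 groups (x axis) and bars for the mean and SD. Stat3, Cebpb, and Cebpd of all 5 HFD+1B mice lay above every chow and every HFD mouse, whereas Il1b spanned only -0.35 to 0.21 over all 17 mice.

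Il1b and Il1rn, the ligand and the natural antagonist of the IL-1 receptor, passed the threshold in no comparison at their brightest probe. For Il1b the chow mice had -0.19, -0.32, -0.10, and -0.03, the 1B mice -0.35, -0.25, -0.19, and -0.22, the HFD mice -0.13, -0.16, -0.20, and -0.16, and the HFD+1B mice 0.06, -0.14, 0.10, 0.21, and -0.16. Of the HFD+1B mice, 3 of 5 were above all mice of the other groups, and mice 2 and 5 lay among the chow and HFD mice. The difference to chow was 0.17 (95% confidence interval -0.01 to 0.36, adjusted p = 0.221) and that to HFD 0.17 (-0.01 to 0.36, adjusted p = 0.185). All 5 HFD+1B mice were above all 1B mice, by 0.27 on average (SE 0.09, adjusted p = 0.0648). Il1b was well above background on all 17 arrays, but its background-corrected Cy5 signal was only 20.7 to 77.9 intensity units. With the offset of 50 units added to every signal, a probe this dim gives a compressed ratio.

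At the brighter Il1rn probe the chow mice had -0.37, -0.10, -0.38, and -0.56, the 1B mice -0.43, -0.07, -0.57, and -0.41, the HFD mice -0.01, -0.05, -0.24, and -0.40, and the HFD+1B mice 0.93, -0.45, 0.52, 0.32, and -0.60. Mice 1, 3, and 4 of HFD+1B had the highest values of the series, and mouse 5 the lowest. The mean difference to chow was 0.50 (SE 0.24, adjusted p = 0.188). The dimmer probe had the same mice on top, at 0.70 to 0.85, with mice 2 and 5 at 0.03 and 0.07, and was called against chow (0.61, SE 0.17, adjusted p = 0.0177) and against 1B (0.56, SE 0.17, adjusted p = 0.0381). The call against chow was lost without chow mouse 4 (0.56), that against 1B without any of 6 mice, and the dimmer probe was well above background on only 2 of 4 arrays of 1B.

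Il1r1, the signaling receptor of IL-1, rose the most of the 10 genes against chow at the brightest probe. The chow mice were at -1.08, -0.97, -1.68, and -1.57, the 1B mice at -0.23, -1.38, -1.02, and 0.05, the HFD mice at -1.48, -1.32, -0.38, and -1.74, and the HFD+1B mice at 1.16, -0.14, 0.86, 0.55, and 0.31. All 5 HFD+1B mice lay above all chow and HFD mice, and 4 of 5 above the highest 1B mouse, while the 1B mice were spread over 1.43 log2 units. The difference was 1.87 (SE 0.32, 3.67-fold, adjusted p = 0.000485) against chow, 1.78 (SE 0.32, adjusted p = 0.00113) against HFD, and 1.19 (SE 0.32, adjusted p = 0.0212) against 1B. The last was lost without 1B mouse 2 (0.95) or 1B mouse 3 (1.07), whereas the first 2 were called in all 17 fits that left out 1 mouse. In 1B the difference to chow was 0.68 (SE 0.33, adjusted p = 0.382).

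Il6ra, the ligand-binding chain of the IL-6 receptor, was the one member that HFD lowered. At the brighter probe the chow mice were at -0.05, -0.27, 0.08, and -0.19, the 1B mice at -0.31, -0.34, -0.27, and 0.14, the HFD mice at -0.71, -0.25, -1.78, and -0.99, and the HFD+1B mice at 0.29, -0.16, 0.12, -0.59, and -0.28. HFD mouse 3 was far below the rest, and HFD mouse 2 was among the chow mice. HFD was lower than chow by -0.83 (SE 0.24, adjusted p = 0.0383), and HFD+1B was higher than HFD by 0.81 (SE 0.23, adjusted p = 0.0213). HFD+1B and chow differed by -0.02 (95% confidence interval -0.50 to 0.46). The dimmer probe gave nearly the same differences, -0.78 (adjusted p = 0.0387) and 0.89 (adjusted p = 0.00899). Both calls of the brighter probe rested in part on HFD mouse 3, without which they were -0.54 and 0.52 and not called, and the fall in HFD was also lost with slide as a block (-0.80).

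Stat3, the transcription factor that IL-6 receptors activate, rose with ethanol on both diets at its brighter probe. The chow mice were at -0.91, -1.09, -1.05, and -1.17, the 1B mice at -0.15, -0.37, -0.50, and -0.10, the HFD mice at -1.35, -1.16, -0.84, and -1.37, and the HFD+1B mice at 0.52, -0.16, 0.42, 0.39, and -0.05. The 8 mice without ethanol and the 9 mice with it did not overlap. Ethanol raised Stat3 by 0.77 on chow (SE 0.15, 1.71-fold, adjusted p = 0.00705) and by 1.40 on HFD (SE 0.15, 2.65-fold, adjusted p = 1.8e-05). The difference between these effects was 0.63 (SE 0.21, adjusted p = 0.1) and was not called. HFD+1B was higher than chow by 1.28 (SE 0.15, adjusted p = 1.22e-05) and than 1B by 0.51 (SE 0.15, adjusted p = 0.0342), and the latter was lost without any of 5 mice, HFD+1B mouse 1 (0.43) and 1B mouse 3 (0.43) among them. Over 14 processing settings the call on chow was lost in 3, the Cy5 channel alone (0.82) among them, and that against 1B in 6.

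The second Stat3 probe did not follow. It read 0.16 to 0.91 in the chow mice, 0.29 to 0.81 in the 1B mice, 0.27 to 0.96 in the HFD mice, and 0.35 to 0.63 in the HFD+1B mice, and all groups overlapped. HFD+1B and chow differed by 0.03 (95% confidence interval -0.31 to 0.37), an interval that does not reach the rise at the brighter probe. The authors' table gives the probes of this pair under different transcript records. The probes are 60 bases long and their longest shared run was 5 bases on the same strand, so they read different stretches. Their first 30 bases, as the deposited table lists them, were as follows.
Stat3, brighter probe: cactctgtgagctgataccccaggctggga
Stat3, dimmer probe: atccatcacacagcccagtaaaccaggaag
With the mean of both probes in place of the brighter one, Stat3 in HFD+1B was still called against chow and HFD, at 0.65 and 0.66. The difference was then 0.44 for 1B against chow and 0.22 for HFD+1B against 1B, the lowest over the settings.

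Socs3, which encodes the feedback inhibitor of IL-6 signaling through STAT3, rose with ethanol on HFD. At the brighter probe the chow mice were at -0.32, -0.83, -0.44, and -0.33, the 1B mice at -0.20, -0.26, -0.00, and -0.49, the HFD mice at -0.71, -0.42, -1.52, and -1.15, and the HFD+1B mice at 0.05, 0.36, -0.24, 0.46, and -0.32. HFD+1B overlapped with neither HFD nor chow, but its lowest mouse was only just above the highest chow mice. The difference to HFD was 1.01 (SE 0.20, 2.02-fold, adjusted p = 0.00245), and that to chow was 0.54 (SE 0.20, adjusted p = 0.085). HFD alone was at -0.47 against chow (adjusted p = 0.171). The rise over HFD was called in all 17 fits that left out 1 mouse, and was lost with the Cy5 channel alone (0.65).

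At the dimmer Socs3 probe the pattern was another. Its chow mice were at -1.56, -1.48, -2.0, and -1.75, the 1B mice at -0.94, -0.67, -0.92, and -1.22, the HFD mice at -0.67, -1.47, -0.26, and -1.86, and the HFD+1B mice at 1.58, -0.71, 1.44, 1.63, and -0.95. Mice 1, 3, and 4 of HFD+1B were above 1.4, while mice 2 and 5 were among the 1B and HFD mice. The difference to chow was 2.30 (SE 0.48, 4.91-fold, adjusted p = 0.00274), and that to HFD was 1.66 (SE 0.48, adjusted p = 0.0221). The call against HFD was lost without HFD mouse 2 (1.53) or 4 (1.40), or HFD+1B mouse 1 (1.42), 3 (1.45), or 4 (1.40). Against 1B the difference was 1.53 (adjusted p = 0.0489), and 13 of 17 fits without 1 mouse lost it. HFD mouse 3, the lowest HFD mouse at the brighter probe, was the highest at this one. The pair shared a run of at most 7 bases, and their first 30 bases were the following.
Socs3, brighter probe: aaagcaggtggcagctccccctcccctcag
Socs3, dimmer probe: ccttcgaggctgtctgaagatgcttgaaaa
Both were well above background on all 17 arrays.

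**Figure D2:**
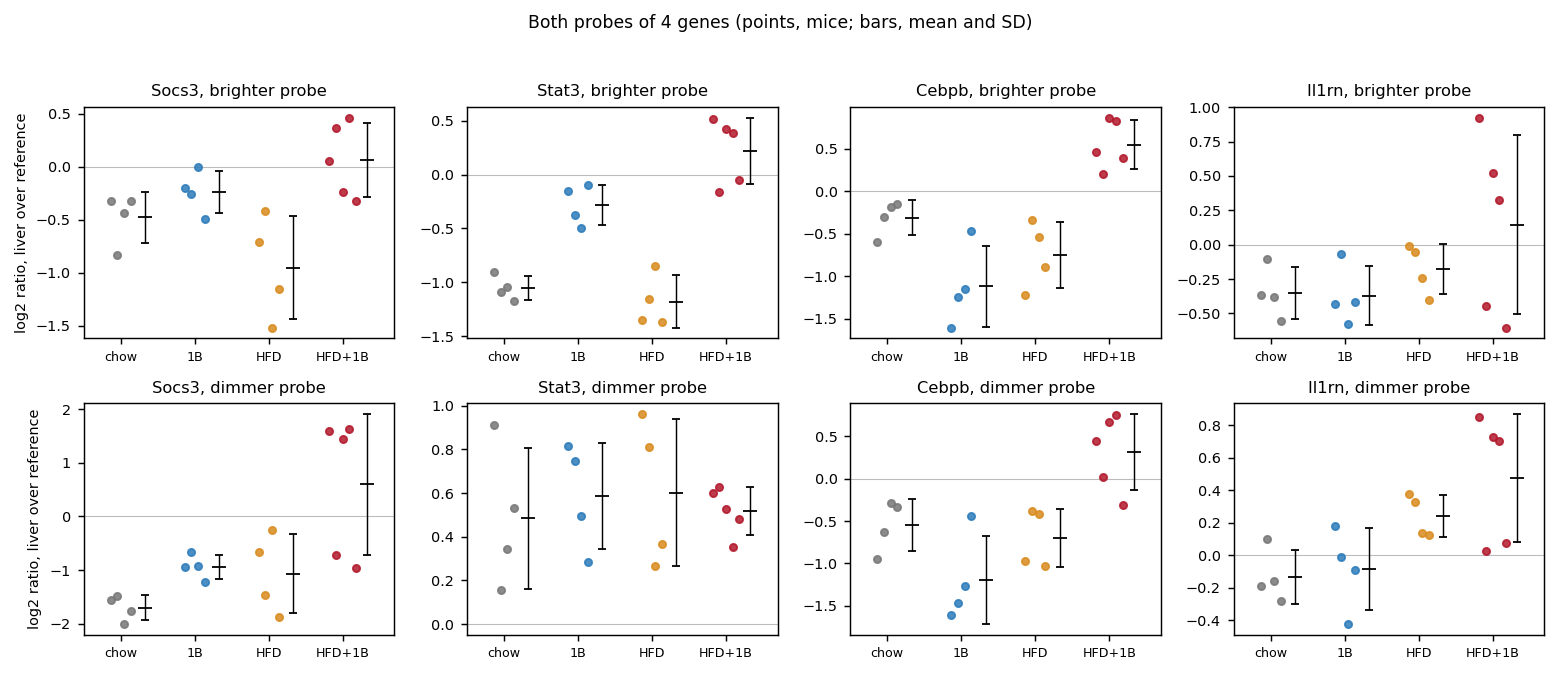
Log2 ratio of liver to reference (y axis, scaled separately in each panel) at both probes of Socs3, Stat3, Cebpb, and Il1rn, with 1 point per mouse in 4 groups (x axis) and bars for the mean and SD. The HFD+1B mice split at the dimmer Socs3 probe (1.44 to 1.63 and -0.95 to -0.71), and the rise of Stat3 at the brighter probe is missing at the dimmer one.

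Cebpb, which encodes C/EBP-beta, was the member whose ethanol effect differed most between the diets. The chow mice were at -0.60, -0.30, -0.18, and -0.15, the 1B mice at -1.61, -1.25, -1.15, and -0.47, the HFD mice at -1.23, -0.34, -0.54, and -0.89, and the HFD+1B mice at 0.46, 0.20, 0.87, 0.83, and 0.39. All 5 HFD+1B mice were above the 12 others, and 3 of 4 1B mice were below all chow mice. The difference with ethanol was -0.81 on chow (SE 0.22, adjusted p = 0.0507, just outside the threshold), and on HFD Cebpb rose by 1.30 (SE 0.21, 2.46-fold, adjusted p = 0.000547). The difference between these effects, the interaction, was 2.11 (SE 0.31, adjusted p = 0.00242). It was 1.95 to 2.33 and called in all 17 fits without 1 mouse. The interaction was called for 2 of the 10 members, Cebpb and Nfkbia, beside 4.39% of all genes (2.67% higher and 1.72% lower), and the count was 1 in the 11 fits that lost Nfkbia. HFD+1B was higher than chow by 0.86 (SE 0.21, 1.82-fold, adjusted p = 0.00899) and than 1B by 1.67 (SE 0.21, adjusted p = 8.77e-05).

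The dimmer Cebpb probe shared at most 5 bases in a run with the brighter one and gave an interaction of 1.66 (SE 0.36, adjusted p = 0.0175). Its HFD+1B mice were at 0.45, 0.02, 0.67, 0.75, and -0.31 and its chow mice at -0.95, -0.62, -0.29, and -0.34, so that HFD+1B mouse 5 lay just inside the chow range. Its difference with ethanol was -0.65 on chow (SE 0.26, adjusted p = 0.239) and 1.02 on HFD (SE 0.25, adjusted p = 0.00867). On the 2 slides that held all 4 groups, the interaction was 1.68 and 2.70 at the brighter probe and 0.92 and 2.08 at the dimmer one.

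Cebpd, which encodes C/EBP-delta, rose in HFD+1B against each of the other groups. The HFD+1B mice were at 0.38, 0.31, 0.74, 0.74, and 0.51, the chow mice at -0.71, -0.83, -0.73, and -0.86, the 1B mice at -1.13, -0.86, -0.76, and 0.13, and the HFD mice at -0.67, -0.55, -0.14, and -0.46. HFD+1B overlapped with no other group, and 1B mouse 4 stood apart from the other 1B mice. HFD+1B was higher by 1.32 than chow (SE 0.19, 2.49-fold, adjusted p = 9.68e-05), by 0.99 than HFD (SE 0.19, adjusted p = 0.00162), and by 1.19 than 1B (SE 0.19, adjusted p = 0.000536). All 3 differences were called in each of the 17 fits without 1 mouse. The interaction was 0.86 (SE 0.27, adjusted p = 0.0788). HFD mice were all above the chow mice, but by 0.33 on average (SE 0.20, adjusted p = 0.311).

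Nfkbia, which encodes IkappaB-alpha, the inhibitor that keeps NF-kappaB in the cytoplasm, had its lowest mean in 1B. The chow mice were at 0.13, -0.09, 0.24, and 0.26, the 1B mice at -0.41, -0.39, -0.47, and -0.16, the HFD mice at 0.21, 0.04, -0.47, and -0.22, and the HFD+1B mice at 0.31, -0.13, 0.32, 0.64, and -0.01. The 1B mice overlapped with neither chow nor HFD+1B. The difference to chow was -0.49 in 1B (SE 0.16, adjusted p = 0.114) and 0.09 in HFD+1B (adjusted p = 0.792), while HFD+1B was higher than 1B by 0.58 (SE 0.15, adjusted p = 0.0197). The interaction of 0.82 (SE 0.22, adjusted p = 0.0437) was close to the threshold and was lost in 11 of 17 fits without 1 mouse (adjusted p 0.0265 to 0.0915), at 0.70 to 0.93 over all 17. These were the fits without chow mouse 1, 3, or 4, 1B mouse 1, 2, or 3, HFD mouse 3 or 4, or HFD+1B mouse 1, 3, or 4. HFD+1B over 1B was lost without 1B mouse 1 (0.56), 2 (0.57), or 3 (0.54), or HFD+1B mouse 4 (0.48).

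Nfkbiz, which encodes the nuclear IkappaB-zeta that IL-1 induces, rose in HFD+1B against chow and 1B. Its chow mice had -0.80, -0.97, -0.44, and -0.49, its 1B mice -0.85, -0.40, -0.81, and -0.43, its HFD mice -0.36, -0.31, -0.29, and -0.24, and its HFD+1B mice 0.24, -0.44, 0.20, 1.07, and -0.05. HFD+1B mouse 4 was the highest and mouse 2, just above the highest chow mouse, was below all HFD mice. HFD+1B was higher than chow by 0.88 (SE 0.21, 1.84-fold, adjusted p = 0.00755) and than 1B by 0.83 (SE 0.21, adjusted p = 0.017), and its difference to HFD was 0.50 (SE 0.21, adjusted p = 0.109). The rise over 1B was lost without 1B mouse 1 (0.75) or 3 (0.76). The Cy5 signal of Nfkbiz was low, 17.9 to 308 intensity units.

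**Figure D3:**
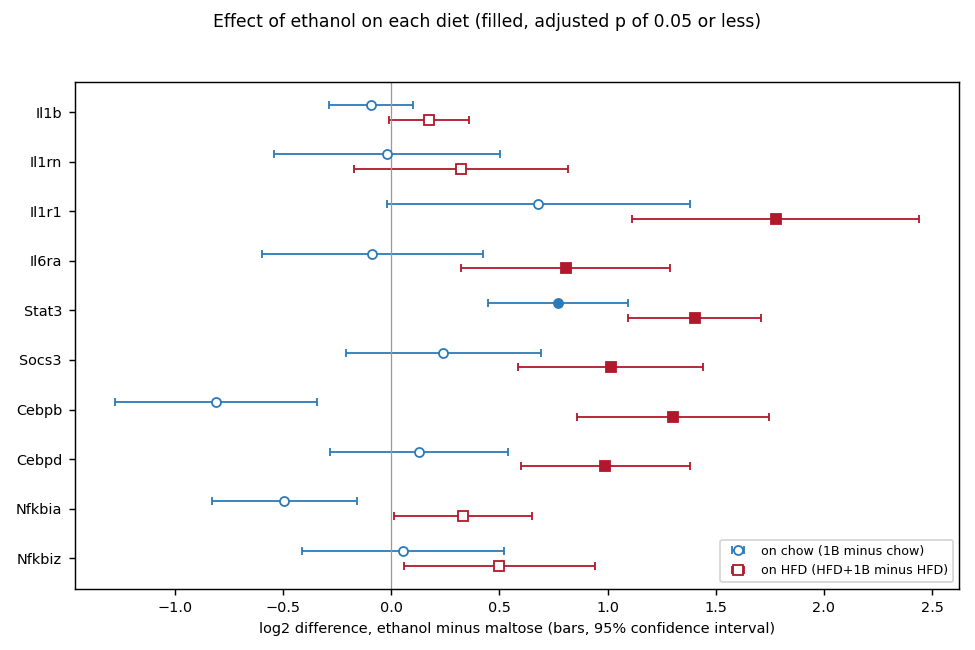
Log2 difference between ethanol and maltose (x axis, with the 95% confidence interval) on chow (1B minus chow) and on HFD (HFD+1B minus HFD) for the 10 members at their brightest probe (y axis), filled where the adjusted p was 0.05 or less. On HFD, 6 members rose, beside 19.4% of all genes called (11.0% higher). On chow 1 rose, beside 4.13% of all genes called (2.09% higher). There Cebpb and Nfkbia lay below 0 (-0.81 and -0.49), neither called.

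The HFD+1B mice differed among themselves. At 10 of the 15 probes the lowest HFD+1B mice were mouse 2 and mouse 5, and at 7 of the 10 brightest probes. The share over all probes was not counted, and probes read in the same mice are not independent. Whether this order is particular to these genes was therefore not tested. The arrays of mice 2 and 5 lay on different slides and had median Cy5 signals of 158 and 96 units, the highest and the second lowest of the group. Over the slides that held both groups, HFD+1B was above chow on 4 of 4 slides for Stat3, Il1r1, Cebpb, Cebpd, Nfkbiz, and Socs3, with a smallest difference of 0.01 for Nfkbiz and 0.89 for Stat3. HFD+1B was above HFD on 4 of 4 slides for the same genes. Of these genes, Socs3 was not called against chow at its brighter probe, and Nfkbiz was not called against HFD. These slides hold the same arrays that gave the calls, and the share of all genes higher on every slide was not counted. Il6ra, which was called against HFD, was higher on 3 of 4 slides at its brighter probe (lowest difference -0.03). With slide as a block, 5 members were called against chow and 6 against HFD, as without it.

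The wider pathway was read from a list of genes by role, of which 108 were tested, the 10 members included. In HFD+1B against chow 36 of the 108 were called (33.3%, 30 higher and 6 lower), beside the 16.3% of all genes. Without the 10 members it was 31 of 98 (31.6%). In HFD+1B against HFD 31 of 108 were called (28.7%, 26 higher and 5 lower), beside 19.4% of all genes. In 1B against chow 5 were called (4.63%, 3 higher), beside 4.13%, and in HFD against chow 10 (9.26%, 1 higher), beside 11.0%. The count of 5 was 3 without chow mouse 3 or 4 or 1B mouse 1, 2, or 3, and that of 10 was 5 without chow mouse 4 or HFD mouse 3 and 6 without chow mouse 2 or HFD mouse 4. The median difference of the list was 0.11 in HFD+1B against chow and 0.16 against HFD, well below that of the 10 members. Members and list were chosen with earlier results of these data known, so this contrast is no test of the members. The probe of Nlrc4 was too dim to be tested, and Lif, Stat5a, and Cebpe matched no probe by symbol.

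Among ligands and inflammasome genes the counts differed by role and comparison. Of 10 IL-1 family ligands and antagonists 1 was called in HFD+1B against HFD (10%, beside 19.4% of all genes). This was Il18, which rose by 0.36 (SE 0.11, adjusted p = 0.0362) and had fallen by 0.59 in HFD against chow (adjusted p = 0.00521). The rise was lost without HFD mouse 1 or 3 or HFD+1B mouse 1, 2, or 3, at 0.26 to 0.43 over all 17 fits. Il6 itself differed by 0.07 between HFD+1B and chow (SE 0.08, adjusted p = 0.664). Of 7 IL-6 family ligands, Il27 (0.48, adjusted p = 0.0137) and Cntf (0.38, adjusted p = 0.0204) rose over HFD (28.6%, beside 19.4% of all genes) and 0 were called against chow, whereas in HFD against chow they were at -0.59 (adjusted p = 0.00899) and -0.34 (adjusted p = 0.0589). The rise of Il27 turned to -0.16 with the Cy5 channel alone. Of 6 inflammasome genes, 2 rose in HFD+1B against chow (33.3%, beside 16.3% of all genes), Casp4 (0.51, adjusted p = 0.0311, named after its value was seen) and Pycard (0.38, adjusted p = 0.043), and 1 rose against HFD (16.7%, beside 19.4%). Pycard, the adaptor of the inflammasome, rose by 0.70 over HFD (SE 0.12, adjusted p = 0.000937) at its brighter probe and was at -0.07 at the other.

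Receptors moved apart from each other. Lifr, the receptor of leukemia inhibitory factor, was at 0.50 to 1.04 in the chow mice, 0.21 to 0.80 in the 1B mice, -0.89 to -0.33 in the HFD mice, and -1.59 to -0.93 in the HFD+1B mice. It fell on HFD by 1.36 against chow (adjusted p = 0.000161), and HFD+1B was lower than HFD by -0.70 (adjusted p = 0.00666). This was the brightest of 5 Lifr probes, and the fall in HFD against chow was read at it alone. The other 4 were at -0.21 to 0.27 in HFD+1B against HFD, and the highest of these was itself called (adjusted p = 0.0404), so that Lifr has no settled direction there. Cntfr rose over HFD by 0.75 (adjusted p = 0.00214). Against chow, Il1rap, the coreceptor of Il1r1, fell by 0.86 in HFD+1B (SE 0.16, adjusted p = 0.00101), the decoy receptor Il1r2 rose by 0.48 (adjusted p = 0.0427), and Osmr, the receptor of oncostatin M, rose by 0.61 (SE 0.14, adjusted p = 0.00526). These last 3 were picked after their values were seen. They were read only at the brightest of 3 probes for Il1rap and of 2 each for Il1r2 and Osmr. Of 8 IL-1 receptors and coreceptors 3 were called against chow (37.5%, 2 higher and 1 lower). Of 6 IL-6 family receptors it was 2 (33.3%, 1 higher and 1 lower), beside 16.3% of all genes. Il6st, which encodes the shared gp130 chain, differed by 0.11 (SE 0.16, adjusted p = 0.751).

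Of 5 NF-kappaB subunits 4 rose in HFD+1B against chow (80%, beside 16.3% of all genes called). These were Nfkb1, Nfkb2, Rela, and Relb, by 0.32 to 0.74, of which Nfkb1 was also called in 1B (0.39) and in HFD (0.35). Nfkb1 was read only at the brightest of its 3 probes. For Rela, chow mouse 1 was at -1.10, beside -0.33 to -0.26 in the other chow mice. Whether each of these calls against chow holds without 1 mouse was not tested. Against HFD, Rela (0.53) and Relb (0.39) were called (40% of the subunits, beside 19.4% of all genes). However, 13 and 12 of the 17 fits without 1 mouse lost these calls. A second Rela probe was at 0.50 (adjusted p = 0.00439). Bcl3, a nuclear IkappaB protein, was at -1.39 to -0.52 in the chow mice, 0.09 to 0.62 in the 1B mice, -1.39 to -0.41 in the HFD mice, and -0.38 to 0.84 in the HFD+1B mice, so that the mice with and without ethanol did not overlap. Ethanol raised it by 1.37 on chow (SE 0.25, adjusted p = 0.00314) and by 1.29 on HFD (SE 0.23, adjusted p = 0.00131), with an interaction of -0.09. Nfkbib, which encodes IkappaB-beta, rose by 0.71 over HFD (adjusted p = 0.00074), and its HFD+1B mice, at -0.24 to 0.40, were all above the HFD mice. On chow, ethanol also lowered Ikbkb by 0.49 (adjusted p = 0.0106) and Pim3 by 0.93 (adjusted p = 0.0284), both named after their values were seen.

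Of 10 JAK and STAT genes 3 rose against HFD and 1 fell (40% called, beside 19.4% of all genes). Besides Stat3 these included Jak3, which was at -1.70 to -1.05 in the HFD mice and -0.89 to 0.25 in the HFD+1B mice (0.97, SE 0.19, adjusted p = 0.00245). In HFD it was -1.12 against chow (adjusted p = 0.00269). Its other probes were at -0.07 and -0.19 for HFD+1B against HFD, and at -0.30 and -0.48 for the interaction, which was 1.19 (adjusted p = 0.0264) at the brightest, so that Jak3 has no settled direction. Tyk2 fell by 0.47 (adjusted p = 0.0136), a call lost without HFD mouse 3 (-0.38). Of 16 inhibitors 4 rose, Socs3 included, and 2 fell (37.5% called, beside 19.4% of all genes). The phosphatases Ptpn2 (0.61, adjusted p = 0.0246, lost without any of 6 mice) and Ptpn6 (0.61, adjusted p = 0.000645) were the other genes the rule named, but a second Ptpn6 probe was called lower (-0.72, adjusted p = 0.00277), so that Ptpn6 has no settled direction. In the C/EBP family, Cebpa, the factor of the resting hepatocyte and outside the naming rule, was lower in HFD+1B than in chow at the brighter of its 2 probes. Cebpb and Cebpd were higher. The Cebpa difference was -1.08 (SE 0.34, adjusted p = 0.0409, 4 of 5 HFD+1B mice with a value). Its other probe was not read, and its dependence on single mice was not tested. Cebpa was at -1.13 in HFD+1B against 1B (adjusted p = 0.0614) and at -0.35 against HFD (adjusted p = 0.528). In HFD against chow it was at -0.74 (adjusted p = 0.182), and none of these was called.

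Of 12 genes in general use as STAT3 targets, 5 rose in HFD+1B against HFD and 0 fell (41.7% called, beside 19.4% of all genes). Bcl2l1, which encodes the survival protein Bcl-xL, was at -1.39, -1.08, -1.16, and -1.46 in the chow mice, -1.66, -1.78, -1.75, and -1.48 in the 1B mice, and -1.37, -1.21, -3.40, and -1.93 in the HFD mice. In HFD+1B mice 1, 2, 4, and 5 it was at 1.26, -0.20, 1.1, and -0.28, and mouse 3 had no value. The HFD+1B mice were above all others, and HFD mouse 3 far below. The difference to HFD was 2.44 (adjusted p = 0.000684) and the interaction 2.84 (adjusted p = 0.013). A second probe gave 1.1 (adjusted p = 0.0011) and 1.41 (adjusted p = 0.0129). Junb rose by 0.75 over HFD (adjusted p = 0.00217) and by 1.91 at its other probe. Pim3 had an interaction of 1.48 (SE 0.32, adjusted p = 0.0173), from -0.93 on chow and 0.55 on HFD. Pim1, named after its values were seen, had one of 1.02 (SE 0.28, adjusted p = 0.0488). In the whole list the interaction was called for 8 of 108 genes (7.41%, all 8 positive), and for 6 of the 98 without the members (6.12%), beside 4.39% of all genes. The count of 8 was 3 without chow mouse 3 or 4 or 1B mouse 1, 4 without 1B mouse 2 or HFD mouse 3, and 5 without chow mouse 1, HFD mouse 4, or HFD+1B mouse 1 or 4.

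**Figure D4:**
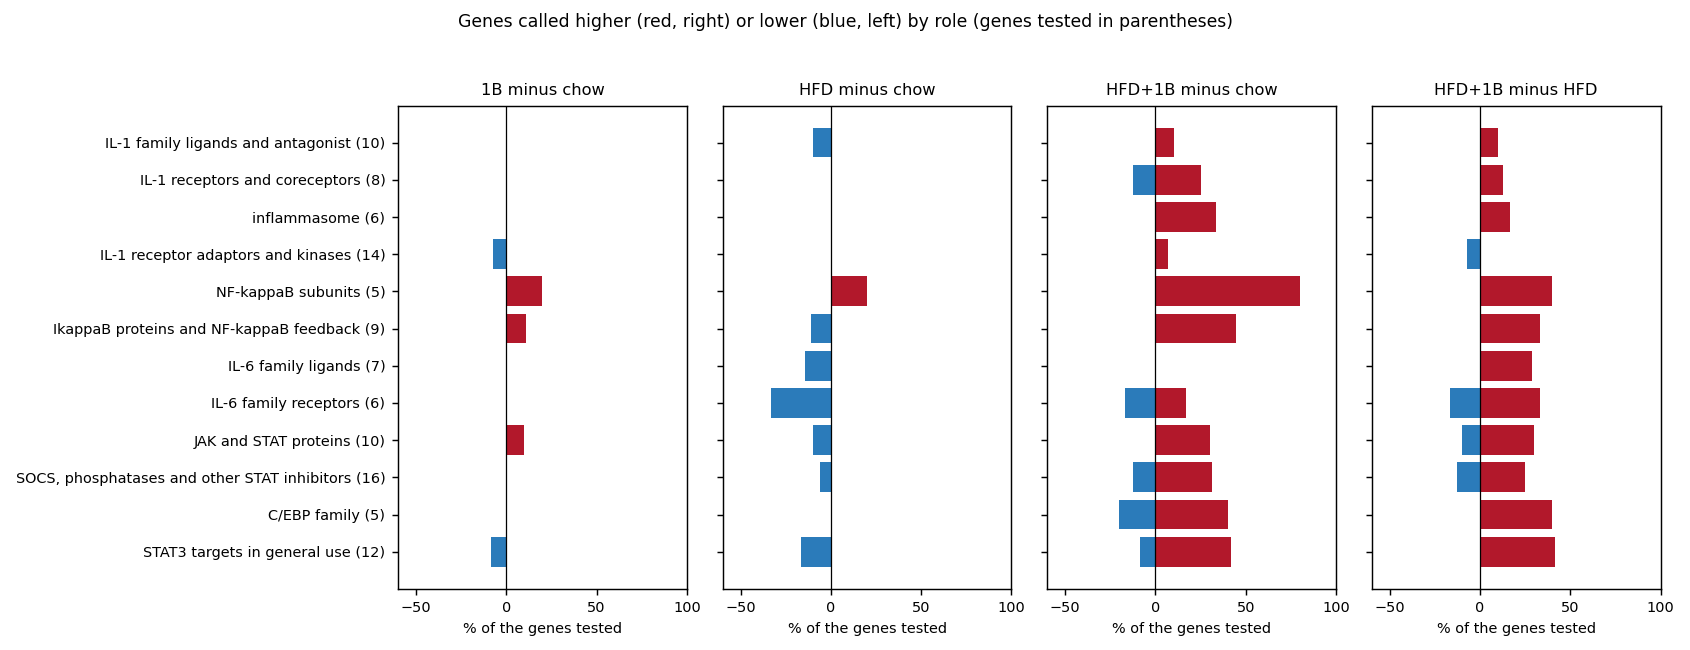
Share of the genes tested in each role (x axis, percent, higher to the right and lower to the left) that were called in 4 comparisons, with the number of genes tested in parentheses (y axis). Roles that hold members include them. In HFD+1B against chow 4 of 5 NF-kappaB subunits were higher, beside 8.90% of all genes. Among them was Rela, for which chow mouse 1 lay far below the other chow mice. In 1B against chow no role had more than 1 gene called, beside 4.13% of all genes.

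The genes most like each member were sought by the root mean square difference of centered log2 ratios over the 17 mice, among 17988 genes with no missing value. For Stat3 these were Abca1, Shb, and Eif1a, at 0.16 to 0.21, beside a spread of 0.62 for Stat3 itself. For Il1r1 they were Slc39a14, Orm3, and Abca1 (0.31 to 0.36, beside 0.91), for Cebpb Lurap1l, Btg1, and Slc25a25 (0.31 to 0.36, beside 0.71), and for Cebpd Mapkapk2, Adora1, and Map3k1 (0.21 to 0.22, beside 0.60). Socs3 was nearest to Chd4, Trp53, and Rpl21 (0.12 to 0.14, beside 0.48), Il6ra to Npm3, R3hdm4, and Dedd (0.24 to 0.26, beside 0.48), Nfkbiz to Hif1a, Slc1a4, and Tgif1 (0.19 to 0.23, beside 0.48), and Nfkbia to Slc1a1, Ccl28, and Cnn3 (0.14 to 0.17, beside 0.31). The likeness of these genes is a description over the same 17 arrays.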

How the data were processed

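One liver of each of 17 mice was measured on a 2-color Agilent array, without a dye swap. The authors scanned the arrays with Feature Extraction 11.5.1.1 and deposited the spot intensity of both channels (median signal and local background, not normalized), and a table of log2 ratios, which equal those of the processed signals (largest difference 2.74e-06) and were used as an alternative. The authors also deposited a log10 ratio per spot, which was not used.

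Intensities were corrected with normexp (offset 50), outlier and control spots left out, ratios were normalized within arrays by loess, and repeat spots were averaged per probe. Probes well above background in Cy5 on at least 4 arrays and with a value in every group were tested (34655, with 3422 missing values, which were left missing). An outlier spot did not count as well above background. The 4 group means were fitted in R 4.3.3 with limma 3.58.1 (lmFit, eBayes, 13 residual degrees of freedom), with Benjamini-Hochberg adjustment over all probes. A gene was read at its brightest probe in Cy5. Fits were tested on simulated data. The precision is limited by the number of arrays.

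The members and lists were chosen with earlier results of these data known. Named pathway genes are, per role, the 2 largest interactions and the 2 largest HFD+1B minus HFD differences among those called. Likeness names the 3 nearest genes. Arrays lay on 5 slides with several groups each. Samples were grouped by the labels. The log2 table had 0 value columns that could not be assigned. Alternatives changed the background correction, normalization, filter, probe rule, blocks, test, or left out 1 mouse, and within-slide differences were added after seeing the data. P-values measure the spread between these mice only.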

Additional observations from a re-analysis of the deposited data

Results flagged for a closer look

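Effects of ethanol that differed between the diets by the interaction term were found for Cebpb (2.1117 at the brighter and 1.6639 at the dimmer probe) and Nfkbia (0.8243), and in the wider list for Bcl2l1 (2.8396), Pim3 (1.4773), Jak3 (1.1897), Il18 (0.7008), and Il27 (0.6683). Pim1, outside the naming rule and named after its value was seen, was called as well (1.02, adjusted p = 0.0488). The other probes of Jak3 gave -0.30 and -0.48 (adjusted p = 0.492 and 0.194), and the mean of its probes 0.14, so that its interaction has no settled direction. Those of Nfkbia and Il27 were lost in 11 and 13 of 17 fits without 1 mouse, and those of Jak3 and Il18 in 4 each. The interaction of Il27 was -0.0071 with the Cy5 channel alone.

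Single mice stood apart from their group by Dixon's test, in which the gap to the nearest mouse is divided by the range of the group and compared with its 95% critical value for 4 mice. Among the members this was 1B mouse 4 at the brighter Il6ra probe (0.14, beside -0.34 to -0.27 in the others, ratio 0.8565). In the wider list they were HFD mouse 1 for Pim3 (-0.80, ratio 0.872), 1B mouse 4 for Junb (-0.18, ratio 0.8735), HFD mouse 3 for Tyk2 (0.50, ratio 0.8754), 1B mouse 2 for Cntfr (0.38, ratio 0.8902), 1B mouse 3 for Pycard (-0.03, ratio 0.8324), and chow mouse 1 for Rela (-1.1, ratio 0.9103). These were 7 of 132 groups examined, and chance alone gives about 1 in 20, or 6.6.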

How the results depend on the processing

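The counts of members called were 1 (1B against chow), 1 (HFD against chow), 5, 6, and 6 (HFD+1B against chow, HFD, and 1B), and 2 (interaction), and those of the pathway list were 5, 10, 36, 31, 26, and 8. Without 1 mouse at a time they ranged from 1 to 2, 0 to 1, 5 to 7, 5 to 7, 2 to 8, and 1 to 3 for the members, and from 3 to 7, 5 to 12, 24 to 38, 21 to 34, 13 to 27, and 3 to 9 for the list. Against 1B the list was at 13 without 1B mouse 2 or 3 and at 17 without HFD+1B mouse 4. Members called in 1B against chow were 2 without background subtraction, with median centring, with the stricter filter, with slide as a block, with a mean-variance trend, and by the methods' Tukey test, which called 10 of the list. Median centring also gave 3 members in HFD against chow, 6 in the interaction, and 15 of the list there. With the Cy5 channel alone the members were 0 (1B against chow), 3 (HFD+1B against chow), 2 (against 1B), and 1 (interaction), and the list was at 1, 5, 15, 11, 8, and 2. The authors' table gave 1 member in the interaction. Without the filter on dim probes, members were 0 in HFD against chow and 1 in the interaction, and the list 5 there. Slide as a block gave 0 members in HFD against chow. A fold of at least 2 with an unadjusted p gave 0, 0, 3 (HFD+1B against chow), and 3 (against 1B) members, and 1, 2, 7, 6, and 6 of the list over the pairwise comparisons. The Tukey test after Benjamini-Hochberg gave 0, 0, 3, and 2 members there, and 0, 1, 12, 11, and 7 of the list. The cause of these changes was not tested.

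The labels do not tie a replicate number to a shared animal, litter, or day. Same-numbered mice correlated above 0.1 in 16 of 24 pairs (-0.13 to 0.48), in 13 of the 14 pairs on the same slide and 3 of the 10 on different slides, and 9 of 16 mice correlated best with their own number. As not every pair did, the numbers were not taken as pairs. With the replicate block the members called were 2, 1, 6, 7, 8, and 3. Of single differences, 3 reversed: Il27 with the Cy5 channel alone (-0.16 over HFD, -0.0071 in the interaction), and Ptpn6 over HFD with the mean of all probes (-0.10). Over 14 settings the 54 single differences kept direction and call in 590 cases and lost the call in 132, and over 17 fits without 1 mouse in 777 and 141. The number of arrays limits precision, and dim probes (Il1b, Il1rn, Nfkbiz) give compressed ratios.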
